A study of Homo sapiens with 4 samples.

Results

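The angiopoietin and VEGF signaling genes described here are 10 of the 61541 genes in the count table of an RNA sequencing experiment on cadmium-resistant breast cancer cells. They comprise the TIE receptors TIE1 and TEK, the VEGF receptors FLT1 and KDR, the angiopoietins ANGPT1 and ANGPT2, the angiopoietin-like protein ANGPTL4, and the ligands VEGFA, VEGFB and VEGFC. The set was selected on the TIE1 counts of these libraries, which were higher in the cadmium-resistant cells. The cadmium against control values of these genes are therefore given as a description, without p-values.

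Per the extraction protocol RNA was sequenced, although a label field names genomic DNA, from MDA-MB-231 cells, an established human cell line derived from a triple-negative breast cancer. The 2 control libraries came from parental cells passaged in ordinary medium, labelled as untreated. The 2 cadmium libraries came from cells made resistant by long passage in cadmium sulfate at a final 10 µM. All libraries derive from 1 parental line, and selection of resistant cells and the effect of cadmium itself cannot be told apart. It was not clear whether the cadmium libraries came from separately selected cells, so p-values measure only the spread between these libraries. Control libraries are called control 2 and control 3 after their columns, although the labels number them 1 and 2. The cadmium libraries are called cadmium 1 and cadmium 2.

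TIE1 and TEK (also known as TIE2) are receptor tyrosine kinases best known from the endothelial cells that line blood and lymph vessels. Angiopoietins bind TEK, and TIE1 has no high-affinity angiopoietin ligand of its own but modulates TEK. VEGFA binds the receptors FLT1 and KDR, VEGFB binds FLT1, and VEGFC acts mainly through FLT4 and also through KDR, with the neuropilins NRP1 and NRP2 as coreceptors. Tumor cells commonly secrete VEGF ligands, while the receptors are usually found on endothelium.

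Total counts per library ranged from 51934729 to 61916007. The controls differed from each other more than the cadmium libraries did. Of 12924 genes averaging at least 100 normalized counts, 14.2% differed by over 2-fold within the control pair and 0.317% within the cadmium pair. The cadmium libraries were counted as the separate replicates that the labels name. Their counts were not copies of each other, with a mean chi-square of 22.1 per gene at 1 degree of freedom, which covers counting error only, is inflated by the counting of both mates and does not show separate cultures. With DESeq2 at an adjusted p-value below 0.1, 225 of 19834 tested genes (1.13%) were called, 119 higher (0.6%) and 106 lower (0.534%) in cadmium. The edgeR quasi-likelihood test called 0 genes at the same threshold, with 1506 at an unadjusted p-value below 0.05, against 1373 for DESeq2. Both mates of a read pair were counted, so a count of 2 can be a single fragment.

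Some of the markers chosen for the line were clear and others were not. VIM (vimentin), CD44, KRT8 and KRT18 (keratins) each had at least 20824 counts in every library, while ESR1 and PGR, the estrogen and progesterone receptors, had at most 20 and 30. In control 2, control 3, cadmium 1 and cadmium 2, EPCAM had 2547, 623, 778 and 737 counts. ERBB2 and CDH1, chosen as low markers, were not at the detection limit. ERBB2 had 7158, 5458, 4606 and 5130 counts, and CDH1 had 113, 578, 170 and 121. None of the 9 markers of the line was called with DESeq2 or edgeR, with 0 and 1 at an unadjusted p-value below 0.05. The 15 endothelial markers were mixed, with some detected and several defining ones at or near 0. PECAM1 (CD31) had 169, 792, 689 and 649 counts in control 2, control 3, cadmium 1 and cadmium 2, the order used for all values below, and CD34 had 167, 74, 199 and 200. ERG and SOX17 had no count in any library, EMCN (endomucin) had at most 2 counts and PLVAP at most 4. CDH5 (VE-cadherin) had 4, 2, 8 and 16 counts. The summed level of the 15 endothelial markers was 252 and 297 CPM (counts scaled to the library total) in the controls and 348 and 360 in the cadmium libraries. Most of that sum came from ESAM, ROBO4 and EGFL7, with between 1292 and 11980 counts each. None of the 9 tested markers was called with DESeq2 or with edgeR, and 1 (ROBO4) had an unadjusted p-value below 0.05 with either tool. The median log2 change of the 9 was 0.41 against -0.02 over all tested genes. In normalized counts both cadmium libraries were above both controls for CDH5, VWF, CLDN5, ROBO4, ECSCR and CD34. They were below both for SOX18, and the groups overlapped for the others. CDH5, CLDN5 and ECSCR had at most 18 counts in any library. Over all tested genes, 20.3% were above and 19.9% below. Of 7 blood cell markers, 5 had at most 3 counts in every library. PTPRC (CD45) had 2, 135, 37 and 43 counts, and ITGA2B had 29, 26, 32 and 22. The part of other cell types in the results below was not tested.

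The promoters of TIE1 and KDR are shown because these endothelial receptor genes were at a similar level per length in the cadmium libraries and far apart in control 2. Each sequence is the 250 bases before the RefSeq start site on GRCh38.p14, on the strand of the gene. Capitals mark AGGAA, a form of the core bound by ETS transcription factors, on either strand (TTCCT is its complement). Other forms, such as GGAA after another base, were not searched for and are not marked. TIE1 lies at chr1:43300732-43300981 (plus strand) and KDR at chr4:55125596-55125845 (minus strand).
TIE1: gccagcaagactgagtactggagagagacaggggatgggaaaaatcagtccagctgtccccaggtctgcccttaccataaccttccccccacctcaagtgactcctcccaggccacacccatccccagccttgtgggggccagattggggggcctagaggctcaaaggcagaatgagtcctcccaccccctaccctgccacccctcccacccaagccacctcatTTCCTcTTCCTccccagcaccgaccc
KDR: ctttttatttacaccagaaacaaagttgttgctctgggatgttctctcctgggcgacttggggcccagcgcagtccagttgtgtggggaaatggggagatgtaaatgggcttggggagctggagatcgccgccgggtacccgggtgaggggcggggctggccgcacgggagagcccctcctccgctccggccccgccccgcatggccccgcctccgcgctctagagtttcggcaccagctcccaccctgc

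The TIE1 window held AGGAA on the minus strand at positions -26 and -20 from the start site, adjacent but not overlapping. The KDR window held no AGGAA. Of 35116 RefSeq promoter windows of the same length, 56.8% had AGGAA at least once on either strand. Neither window held TGCACNC or TGCGCNC, the forms of the metal response element core read by MTF-1, which occurred in 9.87% and 16.8% of windows. TGANTCA (the AP-1 site of FOS and JUN), ACGTG (the hypoxia response element core) and TGTTTAC (a forkhead site) were also absent from both, and occurred in 6.57%, 18.5% and 2.98% of windows. A match or its absence describes these letters in this window and says nothing of factor binding. Motifs were chosen after the data had been seen.

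TIE1 (ENSG00000066056, chr1:43300982-43323108, plus strand) went from near the detection limit to a low but clear level. It had 6 and 17 counts in the controls and 349 and 347 in the cadmium libraries. The normalized read counts were 5.68 and 18.1 in control (mean 11.9 ± 8.77, SD, n = 2) and 347 and 343 in cadmium (345 ± 3.35, SD, n = 2). The groups did not overlap, and the lowest of the 4 ratios between a cadmium and a control library was 19.0. The highest was 61.2, because the controls differed from each other by 3.18-fold. The DESeq2 log2 fold change was 4.88 ± 0.556 (SE), or 29.4-fold. Leaving out 1 library at a time moved it between 4.25 (without control 2) and 5.91 (without control 3). In bulk RNA, a higher share of cells expressing TIE1 and more TIE1 RNA per cell cannot be told apart.

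**Figure D1:**
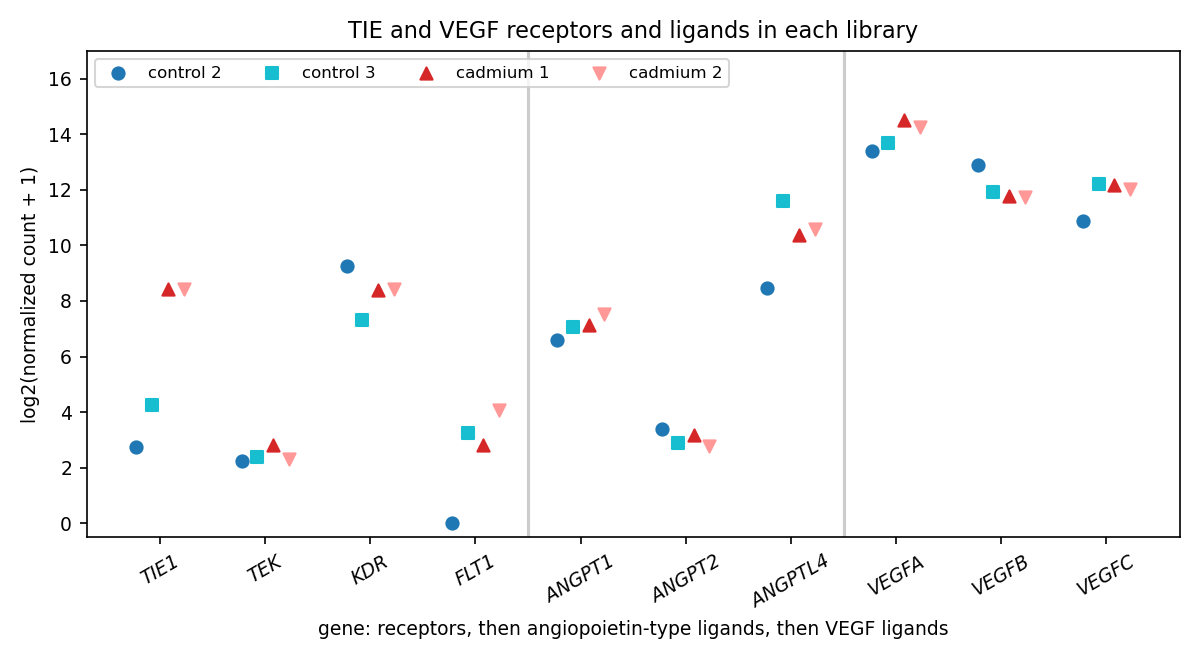
The log2 of the normalized read count plus 1 for each of the 10 genes (x axis), 1 point per library. Vertical lines separate receptors, angiopoietin-type ligands and VEGF ligands. The cadmium points of TIE1 lie far above both control points (normalized counts of 347 and 343 against 5.68 and 18.1), while the control points of KDR, ANGPTL4 and VEGFC lie on either side of the cadmium points.

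Counts were also compared per length, as RPKM, in which counts are scaled to exon length and to the library total. In RPKM, TIE1 was at 0.0145 and 0.0488 in control and at 0.945 and 0.914 in cadmium. Among genes with a read in the same library, this is the 5.55 and 15.1 percentile in control and the 55.8 and 55.7 percentile in cadmium. Among 58 receptor tyrosine kinases, TIE1 stood at rank 42 and 36 by RPKM in control and at 25 and 27 in cadmium. TIE1 thus moved from among the barely detected receptors of the family to near its middle.

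No other gene overlapped the exons of TIE1, so its counts were not shared with a neighbor. In the 500 kb on either side, 23 other genes were tested, and 0 were called with DESeq2 or with edgeR, with 1 and 0 at an unadjusted p-value below 0.05. Their log2 fold changes ran from -0.82 to 0.31 with a median of -0.23. None of these neighbors came near the TIE1 value. The region did differ between the controls. The 40 nearest genes with a mean of at least 100 normalized counts had a median log2 ratio of control 3 to control 2 of -0.81. For TIE1 itself that ratio was 1.51.

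**Figure D2:**
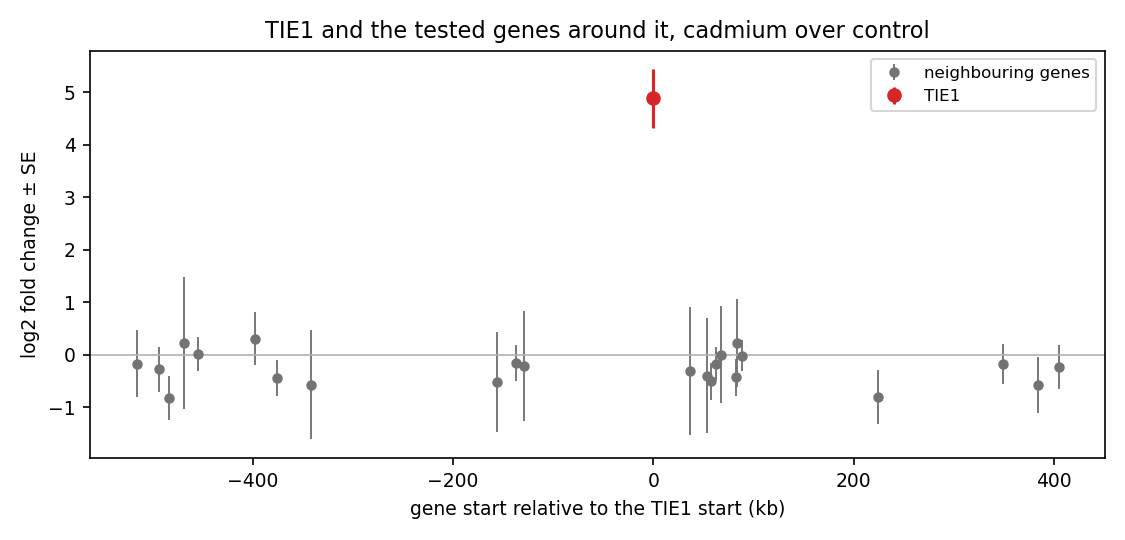
DESeq2 log2 fold change, cadmium over control, with its standard error, for TIE1 and the 23 other tested genes within 500 kb, against the distance of gene starts in kb, which for a long gene can pass 500. TIE1 is at 4.88 and the others lie between -0.82 and 0.31.

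The profiles most like that of TIE1 were sought among 18864 genes that averaged at least 10 normalized counts. Likeness was the distance between log2 profiles over the 4 libraries, each centered on its own mean. The nearest was NTM (neurotrimin, a neural adhesion molecule), at a distance of 0.0991, with 0, 2, 54 and 52 counts. PCDHAC1, a protocadherin, had 0, 1, 65 and 64 counts, and TFEC, a transcription factor, had 0, 2, 31 and 51. ZNF521, a zinc finger protein, had 22, 32, 698 and 611 counts, and the remaining one, ENSG00000272217, had 0, 1, 28 and 31. All 5 resemble TIE1 in being low in both controls and higher in both cadmium libraries, which the measure selects for.

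TEK (chr9:27109141-27230174, plus strand), the angiopoietin receptor, stayed at the detection limit. It had 4, 4, 6 and 4 counts, and at most 0.0227 RPKM in any library. The groups overlapped in normalized counts, and the log2 fold change was 0.30 ± 1.69 (SE). No difference in TEK was detectable at this depth. The cadmium libraries thus held TIE1 RNA with next to no RNA for TEK, the receptor with which TIE1 is known to act.

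KDR (VEGFR2, chr4:55078481-55125595, minus strand), the main signaling receptor for VEGFA, was expressed in all libraries without a separation of the groups. It had 652, 149, 339 and 344 counts, or 1.66, 0.452, 0.970 and 0.958 RPKM. Both cadmium libraries fell between the controls, which differed by 3.89-fold, for a log2 fold change of -0.20 ± 0.589 (SE). Its direction depended on the control used, at 1.09 without control 2 and -0.88 without control 3. The RPKM ratio of KDR to TIE1 was 115 and 9.27 in the controls and 1.03 and 1.05 in the cadmium libraries. The control ratios rest on only 6 and 17 TIE1 counts and are imprecise.

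FLT1 (VEGFR1, chr13:28300346-28495145, minus strand), which binds VEGFA and VEGFB, was at the detection limit like TEK. It had 0, 8, 6 and 16 counts, at most 0.0225 RPKM. The groups overlapped, and the log2 fold change of 1.37 ± 1.86 (SE) was 0.35 without control 2. Without control 3 the control had no count, so no fold is given. FLT4 (VEGFR3), the VEGFC receptor and not one of the 10 genes, had 0, 0, 4 and 3 counts. Of the TIE and VEGF receptors, TIE1 and KDR were thus the only ones above 20 counts in any library.

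Among the angiopoietins, ANGPT1 (chr8:107249482-107498055, minus strand), the activating ligand of TEK, was present at a low level. It had 101, 125, 139 and 186 counts, or 0.229, 0.338, 0.354 and 0.461 RPKM. The cadmium libraries were above the controls in normalized counts, but cadmium 1 (138) was next to control 3 (133). This amounted to a log2 fold change of 0.50 ± 0.444 (SE).

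ANGPT2 (chr8:6499632-6563409, minus strand), the context-dependent antagonist of ANGPT1, had 10, 6, 8 and 6 counts. The groups overlapped, and the log2 fold change was -0.19 ± 1.36 (SE). Its exons overlap those of MCPH1 on the opposite strand, which had between 1039 and 1161 counts, and the counting ignored strand. The low ANGPT2 counts are uncertain for that reason.

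ANGPTL4 (chr19:8363289-8374370, plus strand), a secreted lipoprotein lipase inhibitor induced by hypoxia and by PPAR receptors, does not bind the TIE receptors. It varied more between the controls than any other of the 7 genes that passed the count filter, with 371, 2945, 1329 and 1569 counts. Only 1.25% of the genes with a mean of at least 100 differed more between the controls than its 8.92-fold. The cadmium libraries lay between both controls, for a log2 fold change of -0.28 ± 1.30 (SE). It turned to 2.02 without control 3 and was 0.50 with limma-voom, so no direction can be given.

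VEGFA (chr6:43770184-43786487, plus strand), the principal angiogenic ligand, was higher in both cadmium libraries. It had 11308 and 12497 counts in control and 23134 and 19794 in cadmium. Normalized counts were 10700 and 13288 (11994 ± 1830, SD, n = 2) against 23024 and 19543 (21283 ± 2461, SD, n = 2). The groups did not overlap, with the 4 ratios between 1.47 and 2.15. The log2 fold change was 0.83 ± 0.272 (SE), or 1.77-fold, and stayed between 0.68 and 0.98 as libraries were left out. The 40 nearest genes with a mean of at least 100 had a median log2 change of 0.35, and VEGFA was above 90% of them. The part of this regional shift in the VEGFA difference was not tested. VEGFA exons overlap those of ENSG00000272114 on the opposite strand, which had no count in any library. Reads falling on both genes would be dropped, and their number is not known.

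VEGFB (chr11:64234584-64239264, plus strand), a ligand of FLT1, went the other way. It had 7948 and 3673 counts in control and 3510 and 3454 in cadmium. Normalized counts were 7521 and 3905 against 3493 and 3410, so the cadmium libraries were below both controls, though close to control 3. The log2 fold change of -0.73 ± 0.371 (SE) rested mainly on control 2 and was -0.18 without it. Its 40 neighbors had a median log2 change of -0.32. Their median log2 ratio of control 3 to control 2 was -0.46, against -0.95 for VEGFB. The part of this regional difference in the VEGFB values was not tested.

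VEGFC (chr4:176683538-176792922, minus strand), the lymphangiogenic ligand, had 1966, 4488, 4617 and 4252 counts. Control 2 was low and the other libraries were alike, so the groups overlapped. DESeq2 gave a log2 fold change of 0.41 ± 0.446 (SE), which was -0.12 without control 2 and 1.23 without control 3.

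**Figure D3:**
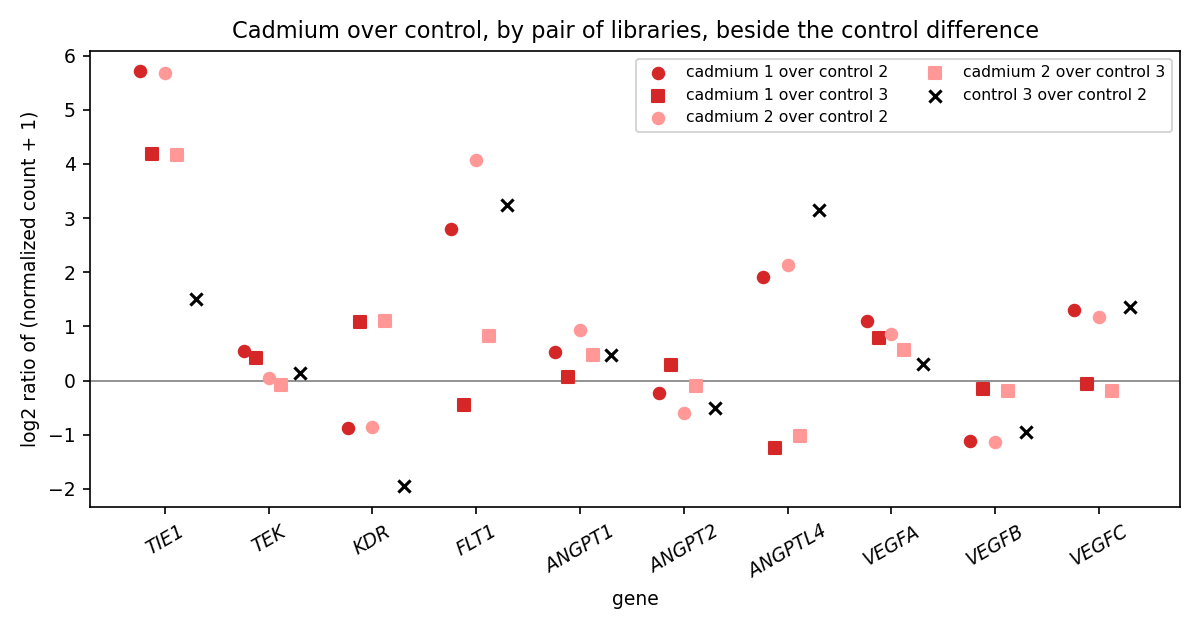
The log2 ratios of each cadmium library to each control library for the 10 genes (4 colored points per gene, normalized counts plus 1), with the log2 ratio of control 3 to control 2 as a cross. For TIE1, ANGPT1 and VEGFA all 4 points lie above 0 and for VEGFB below 0, while for KDR, ANGPTL4 and VEGFC they lie on both sides.

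Of the 10 genes, 7 passed the DESeq2 filter on low counts (mean normalized count 7.65 or more), and TEK, FLT1 and ANGPT2 did not. Of the 7, TIE1 alone was called, against the 1.13% called over all tested genes. In TIE1, ANGPT1 and VEGFA both cadmium libraries were above both controls, an arrangement found in 20.3% of tested genes. In VEGFB both were below, as in 19.9% of tested genes. In the other 6 the groups overlapped. Because the rule used the same comparison, nothing is read from these counts.

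Per length, the VEGF ligands and ANGPTL4 exceeded the receptors and angiopoietins in every library. In control the order by mean RPKM was VEGFB at 50.5, VEGFC at 22.6, VEGFA at 14.7 and ANGPTL4 at 12.7, followed by KDR at 1.06, ANGPT1 at 0.283 and TIE1 at 0.0316. VEGFC, VEGFA and ANGPTL4 did not differ beyond the spread of the control libraries, and neither did TIE1 and ANGPT2 (0.0204). In cadmium VEGFB was at 31.7, VEGFC at 30.4, VEGFA at 26.7 and ANGPTL4 at 10.5, then KDR at 0.964, TIE1 at 0.930 and ANGPT1 at 0.407. There VEGFB overlapped VEGFC, and VEGFC overlapped VEGFA, while VEGFB (31.0 or more) stayed above VEGFA (29.1 or less). TEK, ANGPT2 and FLT1 were last in both groups, below 0.03 RPKM in each library. VEGFA made up 14.1% and 19.5% of the summed RPKM of VEGFA, VEGFB and VEGFC in the controls and 31.1% and 28.9% in the cadmium libraries. VEGFB made up 72.4%, 41.9%, 34.6% and 36.9%. This order and these shares depend on the exon length, which covers all annotated exons of a gene. It was 14431 bases for VEGFA, 1970 for VEGFB and 2615 for VEGFC. By counts, VEGFA was above VEGFB and VEGFC in every library.

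**Figure D4:**
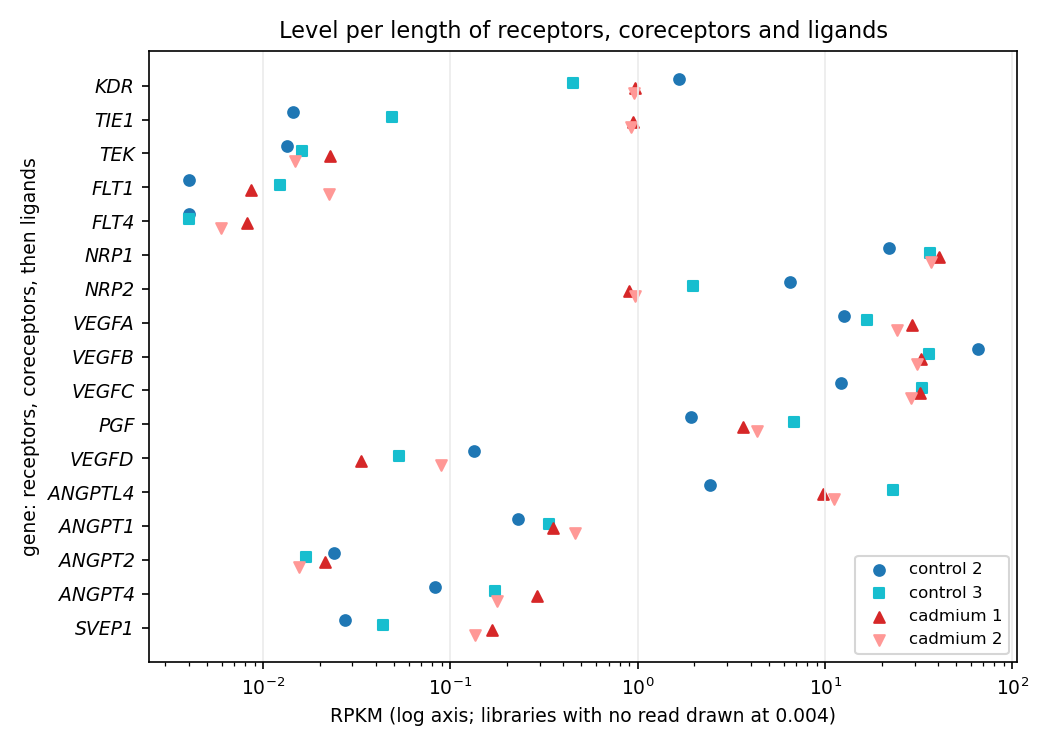
RPKM (log axis) in each library of the 10 genes and of 7 others, namely FLT4, the coreceptors NRP1 and NRP2, the ligands PGF, VEGFD and ANGPT4, and SVEP1. A library with no read is drawn at the left edge. TIE1 moves from 0.0145 and 0.0488 RPKM (control) to 0.945 and 0.914 (cadmium), close to KDR, while VEGFA, VEGFB and VEGFC lie together in cadmium.

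Outside the 10 genes, 134 genes in 7 lists of connected pathways were examined, and 106 of them were tested. DESeq2 called 5 genes (4.72%, against 1.13% of all tested genes), with SVEP1, ACVRL1 and ADM higher and NRP2 and GATA2 lower in cadmium. The lists were drawn up with results of these data known, so this share is a description. The median log2 fold change over the tested pathway genes was -0.12, against -0.02 over all tested genes. All 5 calls were lost with edgeR, where the adjusted p-values were 0.587 for ACVRL1 and 0.620 for the others, and with limma-voom (0.669 for ACVRL1, NRP2, SVEP1, GATA2 and ADM alike). None was called without cadmium 1 or without cadmium 2, where NRP2 had adjusted p-values of 0.609 and 0.379 (DESeq2). ACVRL1 in both of these fits and SVEP1 without cadmium 2 fell under the count filter and had no adjusted p-value. At an unadjusted p-value below 0.05, DESeq2 gave 20 of the 106 genes (18.9%, against 6.92% of all tested genes), 10 in each direction, and edgeR gave 16.

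NRP2, a VEGF coreceptor that favors VEGFC, was lower in cadmium. Its normalized counts were 5318 and 1514 in control and 680 and 752 in cadmium. The groups did not overlap, with a log2 fold change of -2.25 ± 0.528 (SE, DESeq2 adjusted p = 0.00475). It was -1.08 without control 2 and -2.90 without control 3. NRP1, the coreceptor for VEGFA, was at 21.8, 36.1, 40.4 and 36.7 RPKM and was not called (DESeq2 adjusted p = 0.984). The RPKM ratio of NRP1 to NRP2 was 3.34 and 18.3 in control and 45.3 and 37.9 in cadmium. Exons of both coreceptors overlap those of opposite-strand genes with at most 4 counts, and reads falling on both would be dropped. The other VEGF family ligand with more than 20 counts, PGF, lay between 1.93 and 6.85 RPKM with its extremes in the controls. Of this list of 5 genes, 4 were tested and NRP2 was the only one called, and the median log2 change was -0.40.

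SVEP1, a large extracellular matrix protein that binds TIE1, was higher in cadmium. It had 24 and 32 counts in control and 131 and 109 in cadmium. Again the groups did not overlap, with a log2 fold change of 2.07 ± 0.549 (SE, DESeq2 adjusted p = 0.0280). With counts halved for the double counting of mates the adjusted p-value was 0.141. The list of 12 angiopoietin-like proteins and TIE regulators had 6 tested genes, of which SVEP1 was the only one called, and a median log2 change of 0.16. PTPRB (VE-PTP), the phosphatase that dampens TEK, had 304, 55, 210 and 152 counts, with the extremes in the controls.

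ACVRL1 (ALK1), the endothelial receptor for BMP9, was higher in cadmium. It had 6 and 0 counts in control and 118 and 120 in cadmium. The log2 fold change of 5.33 ± 0.896 (SE, DESeq2 adjusted p = 3.21e-06) rests on those few control counts and was 4.37 without control 3. Without control 2 the control had no count, so no fold is given. The BMP9-ALK1 list was drawn up after ACVRL1 had been seen among the changed genes. ACVRL1 was 1 of its 11 tested genes and the only one called, and the median log2 change was -0.54. Targets of this pathway differed most between the controls, as in ID1 (3801, 26049, 8315 and 9141 counts) and ID3 (489, 5342, 1646 and 1776 counts). ENG (endoglin), its coreceptor, had 51, 86, 141 and 126 counts and was not called (DESeq2 adjusted p = 0.803). BMP9 itself, encoded by GDF2, had no count.

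Of 16 endothelial transcription factors, 15 were tested and GATA2 was the only one called. Its normalized counts were 1147 and 778 in control and 233 and 431 in cadmium, without overlap. GATA2 had a log2 fold change of -1.54 ± 0.415 (SE, DESeq2 adjusted p = 0.0339). FLI1, an ETS factor of endothelium and blood, had 24, 6, 52 and 66 counts, and LMO2, a GATA2 partner, had 68, 20, 137 and 162. Neither was called, with DESeq2 adjusted p-values of 0.452 and 0.234. These genes were singled out after their values had been seen, as the 2 besides GATA2 with an unadjusted p-value below 0.05. The list median was -0.03.

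The hypoxia and PPAR list, chosen for VEGFA and ANGPTL4, had 20 genes, all tested, with a median log2 change of -0.02. ADM (adrenomedullin, a vasodilator peptide induced by hypoxia) was the only one called. Its normalized counts were 1689 and 1104 in control and 3256 and 2830 in cadmium, without overlap. ADM had a log2 fold change of 1.12 ± 0.323 (SE, DESeq2 adjusted p = 0.0591). The groups overlapped in other hypoxia targets such as CA9 (14, 17, 2 and 26 counts), BNIP3 (11401, 6796, 7744 and 8072) and NDRG1 (16063, 3367, 17079 and 13748).

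Among the 54 receptor tyrosine kinases outside the 10 genes, 41 were tested and 0 were called with DESeq2 or edgeR, with 10 and 6 at an unadjusted p-value below 0.05. The 10 were 24.4% of the tested receptors, against 6.92% of all tested genes. Of them, 4 were higher and 6 lower in cadmium, and the list median was -0.18. The extremes, named after their values were seen, were EPHA6 at a log2 change of 2.77 ± 1.02 (SE; 2, 10, 46 and 39 counts) and ROR2 (306, 4, 0 and 0 counts). With no count in cadmium, ROR2 was 49.4-fold lower than the control mean when the cadmium level was set at 3 counts per library. That floor covers counting error only and not the counting of both mates, so the fold is not a lower bound. The control mean of ROR2 came almost wholly from control 2. The abundant receptors AXL and EGFR differed little, with log2 changes of 0.04 ± 0.239 and 0.24 ± 0.248 (SE).

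**Figure D5:**
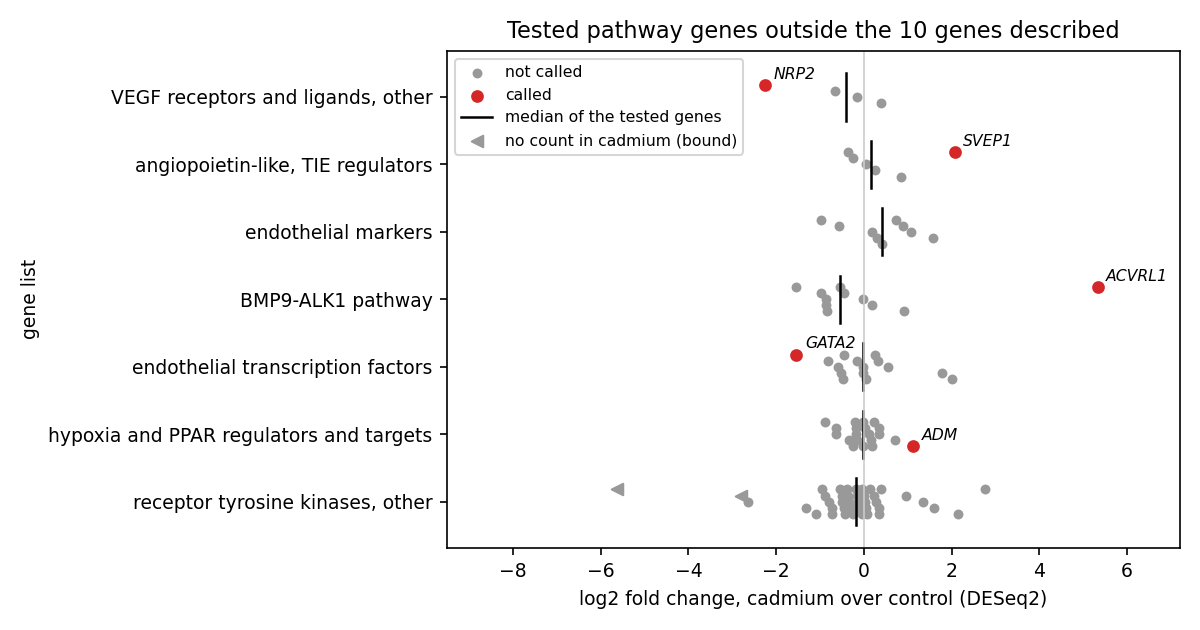
DESeq2 log2 fold change, cadmium over control, of each tested gene in the 7 pathway lists outside the 10 genes, 1 point per gene, with the median of each list as a vertical line. Triangles pointing left mark NTRK2 and ROR2, which had no count in cadmium, at the value set by 3 counts per library. That value does not allow for the counting of both mates. The 5 called genes are named, and the list medians lie between -0.54 and 0.41.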

How the data were processed

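MDA-MB-231 libraries (2 control, 2 cadmium) were compared. The labels give the molecule as genomic DNA, but their protocol describes total RNA extraction and an mRNA library kit, and the data were treated as RNA-seq. Per the file headers and the submitters' processing notes, the authors used HISAT2 for alignment to hg38 and featureCounts 2.0.1 for assignment to Ensembl release 105 genes at default settings, which ignore strand, drop reads that map to several places or genes, and count each mate. The table deposited holds unnormalized counts. Even numbers made up 70.6% to 71.5% of the counts from 1 to 20. Symbols were found for 61369 of 61541 genes. The control columns are numbered 2 and 3 and the labels 1 and 2, so control columns were assigned by group only.

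All genes were fitted with DESeq2 1.42.0 in R 4.3.3 (Wald test, two-sided, group only, Benjamini-Hochberg adjustment over all tested genes, threshold 0.1), the tool the study used. Size factors were 1.06, 0.940, 1.00 and 1.01. Alternatives were edgeR 4.0.16 (quasi-likelihood, TMM), voom in limma 3.58.1, DESeq2 with TMM or upper-quartile scaling, no independent filtering, at least 10 counts in 2 libraries, halved counts, a threshold of 0.05 and leaving out each library. A count of 3, taken as the floor for counting error only, is 0.0485 to 0.0578 CPM. Scripts were tested on simulated data. Promoters came from a table made from RefSeq (GRCh38.p14), in which 7 of the 10 genes were matched.

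The genes and lists were chosen with earlier results of these data known. Named genes were the 10 members, called list genes (up to 4 per list), cell type markers near 0, genes within 500 kb of TIE1 that overlap it or were called, and the 5 profiles nearest to TIE1. Other genes were picked after their values were seen, or as pathway members to illustrate a list. Neighborhood medians, RPKM shares and motif searches were added after seeing the data. Binding and accessibility assays were not analysed here.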

Additional observations from a re-analysis of the deposited data

How the results depend on the processing

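The log2 fold change of TIE1 stayed positive in all alternatives, between 4.87 and 5.05 under other tools, scalings and filters and between 4.25 and 5.91 with 1 library left out. Genes called higher numbered 119 with DESeq2, 0 with edgeR and 0 with limma-voom, and 9 to 2678 with 1 library left out. Genes called lower numbered 106, 0 and 0, and 5 to 3511. At an unadjusted p-value below 0.05, edgeR gave 1506 genes and limma-voom 1423. Pathway genes called higher numbered 3, 0 and 0, and 0 to 27 with 1 library left out, and those called lower 2, 0 and 0, and 0 to 26. The highest counts of calls came without a control and the lowest without a cadmium library. With 3 libraries, the lone sample of a group is assumed to vary like the other group, and the cadmium libraries were the closer pair. The direction of ANGPTL4, KDR and VEGFC changed when 1 control was left out (for ANGPTL4 and KDR also with limma-voom), and that of ANGPT2 and TEK, at the detection limit, also turned (0.12 without control 2 and -0.03 without cadmium 1). VEGFA, VEGFB and ANGPT1 kept their direction in the alternatives run. FLT1, at the detection limit and with overlapping groups, stayed positive in the fits that included it. Its counts were too low for edgeR, limma-voom and the filter of at least 10 counts in 2 libraries.

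No paired analysis was possible because columns and labels number the controls differently (2 and 3 against 1 and 2), so no replicate number ties a control column to a cadmium column.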
